A study of Mus musculus with 8 samples.

Results

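The endothelin system of the mouse thoracic aorta was examined at the level of RNA through its 3 ligand genes (Edn1, Edn2 and Edn3), its 2 receptor genes (Ednra and Ednrb) and its 2 converting enzyme genes (Ece1 and Ece2). All probes that are no controls and whose identifier is a RefSeq transcript of these 7 genes were taken, which gave 8 of the 55681 probes of the array, for 7 of the 21368 genes named on it. Ednrb has 2 probes, 1 for each of 2 transcripts, and every other gene has 1. The genes lie apart in the mouse genome, Edn1 on chromosome 13, Edn2 and Ece1 on 4, Edn3 on 2, Ednra on 8, Ednrb on 14 and Ece2 on 16. Thoracic aortae of 4 Fto -/- and 4 Fto +/+ samples, from animals labelled male on a C57BL6J/NMRI background and fed freely, were each read on 1 array with a single dye. Fto encodes a demethylase of RNA adenosine, and the question of the comparison was how its loss alters expression in the vessel wall. The labels name no treatment or age, and they do not say whether a sample is 1 animal or whether the loss of Fto affects every cell of the animal. The p-values below therefore measure the spread between these samples.

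Endothelins are short vasoactive peptides cut from larger precursors. A furin-type protease releases an inactive intermediate, big endothelin, and the membrane metalloproteases encoded by Ece1 and Ece2 turn it into the active peptide. In arteries, endothelial cells make endothelin-1, the product of Edn1, which contracts smooth muscle through the receptor ETA (Ednra). The receptor ETB (Ednrb) on endothelium releases nitric oxide and clears the peptide. Edn3 and Ednrb are also known for guiding neural crest cells that become melanocytes and gut neurons.

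Endothelin-1 is stored little and is controlled largely through transcription of its gene, so the start of Edn1 is shown with the elements through which GATA factors, hypoxia-inducible factor and AP-1 are known to act on it. The window, from RefSeq on GRCm38.p6, is chr13:42301226-42301525 on the plus strand, 250 bases before the annotated start and 50 after it. Capitals mark every match, on either strand, to AGATAA (the GATA motif), to the hypoxia element core ACGTG and to TGACTAA (the form of the AP-1 motif in this gene):

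Edn1 promoter window: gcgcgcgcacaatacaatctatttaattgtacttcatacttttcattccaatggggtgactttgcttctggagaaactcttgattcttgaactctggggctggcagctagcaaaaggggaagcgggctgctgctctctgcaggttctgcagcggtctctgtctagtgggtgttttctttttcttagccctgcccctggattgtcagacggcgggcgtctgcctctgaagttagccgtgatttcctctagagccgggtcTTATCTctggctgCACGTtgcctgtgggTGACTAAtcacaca

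All 3 matches lie after the annotated start. The GATA match is at bases 9 to 14, read on the opposite strand, the hypoxia element core at bases 22 to 26, also on the opposite strand, and the AP-1 match at bases 37 to 43. Of the 32851 windows of this length in the table, 11.2% hold the GATA motif, 19.6% the hypoxia element core and 2.35% this AP-1 form. The 3 together are in 26 windows. Each of the 7 genes has a window, and Ece1 has 4. Of these 10 windows only that of Edn1 holds the GATA motif or TGACTAA, and 3 hold the hypoxia element core. None holds the AP-1 consensus TGANTCA, which 7.81% of all windows do, or the TATA motif TATAAA, which 13.6% do. These are matches of letters and not measured binding. The 3 marked motifs were chosen as known elements of Edn1, so their presence in its window was fixed by that choice. Their counts in other windows therefore do not test whether Edn1 differs from other genes. Which start these aortae used was not measured. Sequence outside the windows was not searched, so motifs not found here may lie beyond them.

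Fto itself was lower in every Fto -/- sample (log2 difference -3.08 ± 0.15 SE, limma adjusted p = 0.000403), as titles and genotype labels state, whereas the free-text descriptions name the opposite genotypes. The animals are labelled male, but both Xist probes were well above background on 8 of 8 arrays. Of the genes of the Y chromosome, Ddx3y, Kdm5d and Eif2s3y were so on 0 arrays, and 1 of 2 Uty probes on 1. These readings go against the male label, which is therefore in doubt for all 8 samples. The 75th percentile of intensity ran from 294.9 to 415.6 between arrays, and 44.5% to 47.8% of probes were well above background, with all Fto -/- arrays above all Fto +/+ arrays. Of the 8 smooth muscle markers (Acta2 and Myh11 among them) and the 10 endothelial markers, all were well above background on every array, so both cell layers that the endothelin system joins were present. Rag1, from the list of T cell and thymocyte markers, was well above background on 4 arrays, Fto -/- replicates 1, 3 and 4 and Fto +/+ replicate 2. Brown adipocyte markers were read on all arrays, at a summed level of 80.5 to 411 in Fto -/- samples, against 28.7 to 85.7 in Fto +/+ samples, in multiples of the 75th percentile.

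The genotypes differed in sign between the parts of the system. The probes of both receptors had higher mean levels in Fto -/- samples, and those of the ligand Edn1 and of both converting enzymes had lower ones. The differences were of 1.2-fold to 1.57-fold. None of the 5 tested probes passed the threshold (limma, Benjamini-Hochberg adjusted p under 0.05 over all 25292 tested probes), whereas 1.66% of all tested probes did. At an unadjusted p under 0.05 were 3 of the 5, Edn1, Ednra and Ednrb, against 19.0% of all; Ednrb was well above background on only 2 of the 4 Fto +/+ arrays. The genotypes did not overlap for 1 of the 5, Ednra, as for 12.1% of the 25269 tested probes with a value on every array. Edn2, Edn3 and the second Ednrb probe were too dim to be tested. The median log2 difference was -0.27 over the 5 member probes and -0.02 over all tested probes. In whole vessel RNA, fewer cells of a type and less RNA per cell cannot be told apart.

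**Figure D1:**
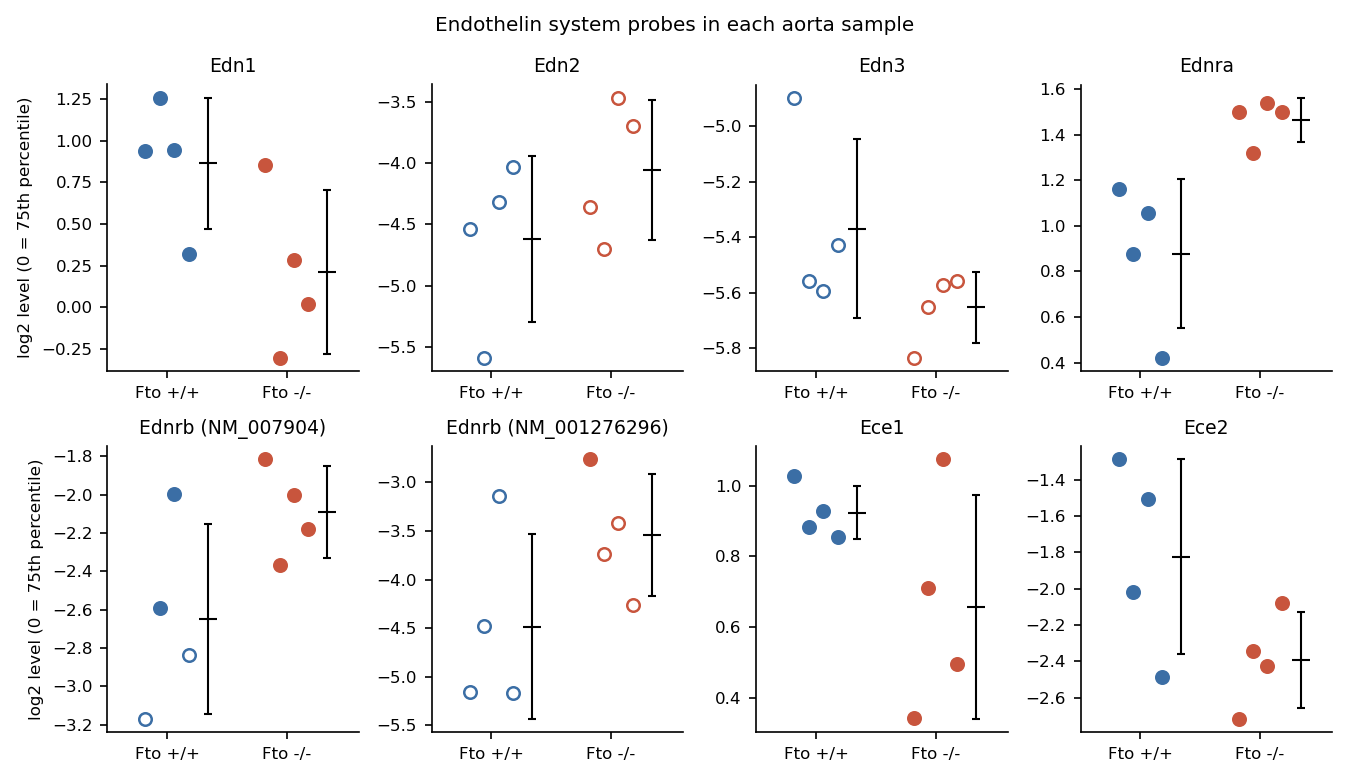
Log2 level of each endothelin system probe in each sample (vertical axis, with 0 at the 75th percentile of the array), by genotype; points are samples, in the order of replicates 1 to 4, filled where the probe was well above background, and bars are the mean ± SD (n = 4). Axes differ between panels. The 4 Fto -/- samples lie above all Fto +/+ samples for Ednra alone among the tested probes, and Edn2 and Edn3 have open points throughout.

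Edn1, the endothelin gene of vascular endothelium, was well above background on all 8 arrays. Its processed intensity was 677, 259, 359 and 340 in Fto -/- replicates 1 to 4 and 719, 994, 733 and 399 in Fto +/+ replicates 1 to 4. Fto -/- replicate 1 lay within the Fto +/+ range, the other 3 lay below it, and Fto +/+ replicate 4 was the lowest of its group, so the genotypes overlapped. On the scale used for tests, log2 of intensity relative to the 75th percentile of the array, Edn1 stood at 0.21 ± 0.49 (SD, n = 4) without Fto, against 0.86 ± 0.39 (SD, n = 4) with it. The log2 difference of -0.65 ± 0.27 (SE; 95% interval -1.27 to -0.03) is 1.57-fold and did not pass (limma adjusted p = 0.245; exact two-sided permutation p = 0.0571, where 0.0286 is the smallest this design can give).

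Edn1 is the only member printed on the array more than once, with 10 spots, so the spread of spots within an array could be measured. The spots of 1 array differed by an SD of 0.04 to 0.1 on the log2 scale, after 2 spots that the scanner software called outliers were left out on each of Fto -/- replicates 1 and 2. The SD between samples was 0.49 in Fto -/- and 0.39 in Fto +/+ samples. The 10 spots of Fto +/+ replicate 2 ran from 940.1 to 1059, all above every Edn1 spot of the other 7 arrays, and the 8 spots kept for Fto -/- replicate 2 ran from 250.5 to 277, all below every spot of the other 7. Spots of 1 array share their extraction, labelling and hybridisation, so their SD covers the reading of spots only.

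**Figure D2:**
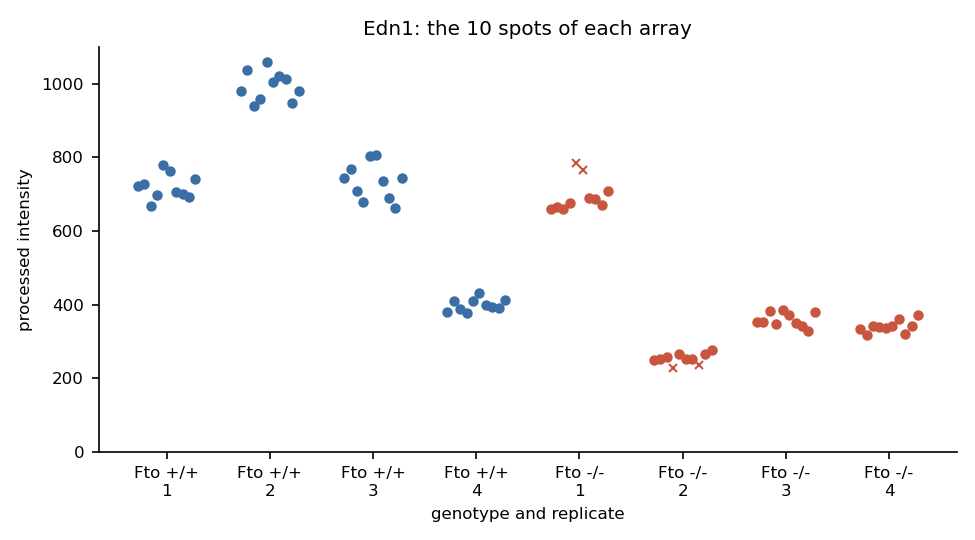
Processed intensity (vertical axis, linear from 0) of the 10 Edn1 spots of each array, by genotype and replicate; crosses are spots called outliers by the scanner software. The spots of an array lie close together, and arrays of the same genotype lie apart; the spots kept span 250.5 to 707.7 in Fto -/- samples, against 376.8 to 1059 in Fto +/+ samples.

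Of the 10 endothelial markers, 7 had a difference below 0 and 0 passed (median log2 difference -0.27). At an unadjusted limma p under 0.05 were 2 of the 10 (Esam at -0.42 and Emcn at -0.84), a share near the 19.0% of all tested probes. The genotypes did not overlap for 0 of the 10, against 12.1%. The mean centred level of the 10 markers lay between -0.39 and 0.22 in Fto -/- samples, against -0.08 to 0.38 in Fto +/+ samples (summed level 59.4 to 93.1 against 71.3 to 102.1). In Fto -/- samples replicate 1 had both the highest Edn1 and the highest endothelial level and replicate 2 the lowest of both, while replicates 3 and 4 ran in opposite orders. In Fto +/+ samples Edn1 was highest in replicate 2 and the endothelial level in replicate 3. Edn1 was lowest there in replicate 4, and the endothelial level in replicate 4 by its centred mean and in replicate 1 by its sum. Whether the endothelial share bears on the Edn1 difference was not tested. Without the 4 arrays with Rag1 signal, which leaves 1 Fto -/- and 3 Fto +/+ samples, the Edn1 difference was -1.04. That Fto -/- sample is replicate 2, the lowest for Edn1, and the value has no replicate on its side. The arrays lay in 2 rows of the slide, with Fto -/- replicates 1, 2 and 3 and Fto +/+ replicate 1 in row 1. Within row 1 the Edn1 difference was -0.66 and within row 2 it was -0.82, each from 1 array against 3 and so given here and below with no test, and with row as a block -0.74 (adjusted p = 0.387).

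Edn2 encodes endothelin-2, known mainly from gut, ovary and other epithelia, and Edn3 encodes endothelin-3, the ligand that acts through Ednrb on neural crest. Neither was well above background on any array. The Edn2 intensity was 12.3 to 26.7 in Fto -/- samples, against 8.63 to 19.6 in Fto +/+ samples. That of Edn3 was 6.2 to 7.14 against 7.43 to 12.6. The dimmest spot that the scanner software called well above background had an intensity of 27.9 to 40.9, depending on the array, so no genotype difference could be measured for these ligands. Edn1 was the only ligand gene with a measurable signal in these aortae.

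Ednra, the ETA receptor gene through which endothelin-1 contracts vascular smooth muscle, showed the clearest separation of the system. Its intensity was 1059, 797, 857 and 948 in Fto -/- replicates 1 to 4 and 838, 762, 793 and 429 in Fto +/+ replicates 1 to 4. On the raw scale Fto -/- replicate 2 lay below Fto +/+ replicate 1. Relative to the 75th percentile, which was lower on average in the Fto -/- arrays, all 4 Fto -/- samples (1.32 to 1.54) lay above all 4 Fto +/+ samples (0.42 to 1.16). The level was 1.46 ± 0.1 (SD, n = 4) against 0.88 ± 0.33 (SD, n = 4), and Fto +/+ replicate 4 lay lowest. The log2 difference was 0.59 ± 0.16 (SE; 95% interval 0.22 to 0.95), 1.5-fold, with a limma adjusted p of 0.108 and the smallest exact permutation p that 4 against 4 samples allow (two-sided, 0.0286). It therefore did not pass over all tested probes.

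The Ednra difference was 0.43 without Fto +/+ replicate 4 (adjusted p = 0.0698) and at most 0.68 with any other array left out. Within slide row 1 the difference was 0.29 and within row 2 it was 0.71, and with row as a block 0.5 (adjusted p = 0.327). Smooth muscle markers lay between -0.23 and 0.05 in Fto -/- samples, against 0.01 to 0.24 in Fto +/+ samples (mean centred log2 level; summed level 2533 to 2896 and 2585 to 3283). Of the 8, 4 had a difference above 0 and 4 below, and 0 passed. At an unadjusted limma p under 0.05 were 4 (Des higher, and Lmod1, Synpo2 and Cnn1 lower), against 19.0% of all tested probes. The genotypes did not overlap for 3 of the 8 (Lmod1, Synpo2 and Cnn1), against 12.1%. Acta2 (0.08 ± 0.1 SE) and Myh11 (0.07 ± 0.15 SE) lay near 0. Fibroblast markers lay between 0.01 and 0.33 in Fto -/- samples, against -0.7 to 0.19 in Fto +/+ samples (6 of 6 measured; summed level 779 to 897 and 605 to 918). Fto +/+ replicate 4 had the lowest Ednra, the highest smooth muscle and the lowest fibroblast level of all 8 samples; the part of either cell type in the Ednra difference was not tested.

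Ednrb, the ETB receptor gene of endothelium, glia and melanocytes, was dim. Its probe for NM_007904 had intensities of 106, 61.8, 73.7 and 74.0 in Fto -/- replicates 1 to 4, well above background on all 4, and of 41.5, 68.9, 95.6 and 44.8 in Fto +/+ replicates 1 to 4, where only replicates 2 and 3 were. Fto +/+ replicate 3 lay above 3 of the 4 Fto -/- samples, so the genotypes overlapped. The level was -2.09 ± 0.24 (SD, n = 4) against -2.65 ± 0.5 (SD, n = 4), a log2 difference of 0.56 ± 0.24 (SE; 95% interval 0.01 to 1.11) that did not pass (limma adjusted p = 0.257; exact two-sided permutation p = 0.114). The probe reached the filter of 4 arrays through the 4 Fto -/- samples and 2 of the Fto +/+ samples, and the Fto +/+ mean holds 2 readings not well above background, so the size of this difference is uncertain. The second probe, for NM_001276296, was called well above background on 1 array alone, that of Fto -/- replicate 1 (55.3). On the other 7 arrays it read 8.93 to 43.3, so no fold could be given for it. The highest reading among the Fto +/+ samples was again that of replicate 3.

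The size of the Ednrb difference varied with the setting. It was 0.32 with normexp background correction (adjusted p = 0.116), 1.11 within slide row 1 and 0.29 within row 2, 0.7 with row as a block (adjusted p = 0.343), and 0.3 without the arrays with Rag1 signal (1 Fto -/- sample, no test). The glial gene S100b differed by 0.71 ± 0.26 (SE, limma adjusted p = 0.198), and Sox10, which defines neural crest glia and melanocyte precursors, was well above background on 0 of 8 arrays. So were 3 of the 5 melanocyte markers, Dct, Pmel and Tyrp1. Tyr was so on 2 arrays, both Fto +/+, and Mlana on all 8, at intensities of 127 to 1315 (log2 difference 0.63 ± 0.51 SE, limma adjusted p = 0.532). The summed level of the 5 was 1.12 to 3.69 in Fto -/- samples, against 0.623 to 1.61 in Fto +/+ samples. Apart from Mlana, none of the melanocyte markers read above an intensity of 43.3 on any array, so this sum rests mainly on Mlana. The part of these cells in the Ednrb difference was not tested.

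Ece1, the main endothelin converting enzyme gene of endothelium, was well above background on all arrays. Its intensity was 475, 523, 622 and 473 in Fto -/- replicates 1 to 4 and 765, 767, 727 and 580 in Fto +/+ replicates 1 to 4. Relative to the 75th percentile the Fto +/+ samples lay close together (0.86 to 1.03) and the Fto -/- samples spread from 0.34 to 1.08, with replicate 3 above every Fto +/+ sample. The level was 0.66 ± 0.32 (SD, n = 4) against 0.92 ± 0.08 (SD, n = 4), and the log2 difference of -0.27 ± 0.16 (SE; 95% interval -0.62 to 0.09) did not pass (limma adjusted p = 0.384; exact two-sided permutation p = 0.2). It was -0.16 without Fto -/- replicate 1 and -0.41 without Fto -/- replicate 3 (adjusted p 0.594 and 0.217). Within the slide rows it was -0.32 and -0.4, and with row as a block -0.36 (adjusted p = 0.444). The probe is annotated to 1 of the 4 RefSeq transcripts of the gene, and the sources used here do not say which of the others it also reads.

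Ece2 encodes the related enzyme that works at acid pH inside secretory vesicles and is best known from neurons and endocrine cells. Its intensity was 56.8, 63.0, 54.9 and 79.3 in Fto -/- replicates 1 to 4 and 153, 103, 134 and 57.1 in Fto +/+ replicates 1 to 4, well above background on all 8 arrays. Relative to the 75th percentile, 3 Fto +/+ samples lay above every Fto -/- sample, and Fto +/+ replicate 4 lay below 3 of them. The level was -2.39 ± 0.26 (SD, n = 4) against -1.82 ± 0.54 (SD, n = 4). The log2 difference of -0.57 ± 0.26 (SE; 95% interval -1.16 to 0.02), 1.48-fold, did not pass (limma adjusted p = 0.28; exact two-sided permutation p = 0.143). It was -0.31 with normexp background correction (adjusted p = 0.247). It was -1.21 within slide row 1 and -0.08 within row 2, and -0.64 with row as a block (adjusted p = 0.428). The only Fto +/+ sample in row 1 was the brightest of all 8.

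**Figure D3:**
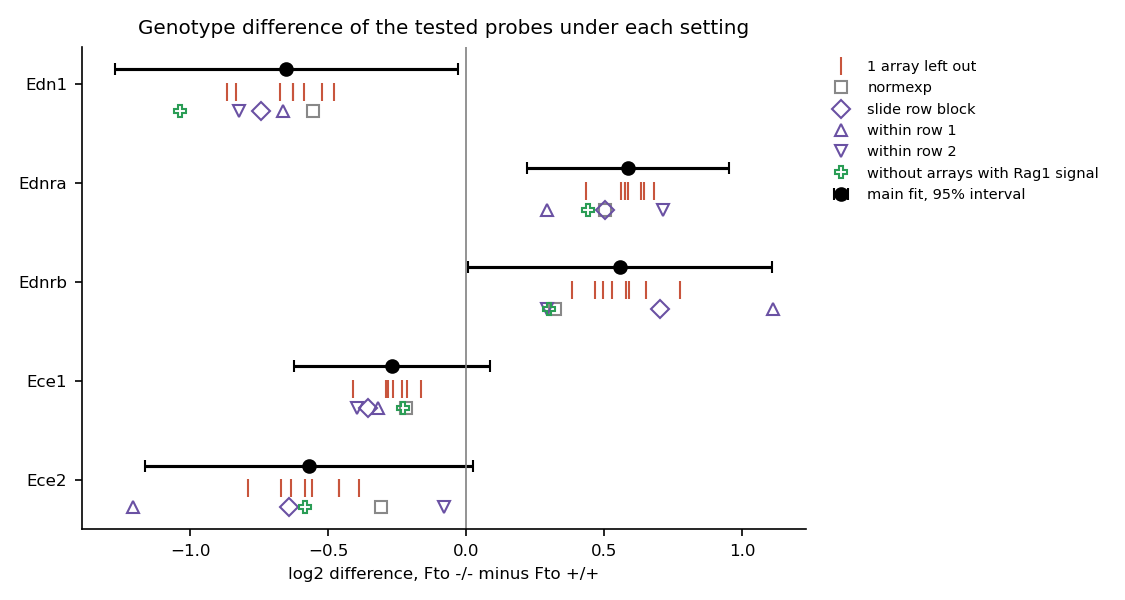
Log2 difference, Fto -/- minus Fto +/+ (horizontal axis), of the 5 tested probes: black points with the 95% interval of the fit to all 8 samples, red ticks the 8 fits with 1 array left out, and open symbols other settings. Each probe stays on its side of 0 in all settings shown, Ednra between 0.29 and 0.71, while Ece2 runs from -1.21 to -0.08 between the slide rows.

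Beyond the 7 genes, 52 genes of endothelin processing, signalling and Edn1 regulation were looked at as lists, of which 45 were bright enough to be tested. None passed the threshold (limma adjusted p), and 12 had an unadjusted p under 0.05, 5 with a higher and 7 with a lower mean in Fto -/- samples. The genotypes did not overlap for 10 of the 45. These counts stand beside 1.66%, 19.0% and 12.1% of all tested probes. Each of the 45 genes is read by its probe of highest mean, whereas the percentages are not limited to such probes. The median log2 difference of the 45 genes was -0.06.

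Upstream of the peptide, 0 of the 4 tested furin-type proteases passed, with Pcsk7 at 0.23 ± 0.09 (SE) and Furin at -0.17 ± 0.11. Among peptidases that cleave endothelins or belong to the enzyme family of Ece1, 4 of 7 were tested, 0 passed, and all 4 differences lay above 0 (median 0.85). Mme, which encodes neprilysin, an enzyme that degrades endothelin-1 and other peptides, differed by 0.9 ± 0.23 (SE, adjusted p = 0.0923) and its relative Phex by 1.06 ± 0.33 (adjusted p = 0.146). Mme and the listed peptidase gene Cma1 were dim, with mean log2 levels of -3.16 and -3.13 in Fto +/+ samples. The lowest level called well above background ran from -3.45 to -3.2 on those arrays. The sizes of their differences, and of the median that rests on them, are therefore uncertain. Kel, Ecel1 and Mmel1 were too dim to be tested. Of the receptor relatives, Gpr37l1 differed by 0.25 ± 0.31 (adjusted p = 0.691), and Gpr37 was too dim.

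Downstream of the receptors, 0 of 6 tested G protein subunit genes passed and 5 had a difference below 0 (median -0.22). Gnaq and Gna11, whose products link ETA to phospholipase C, differed by -0.22 ± 0.08 and -0.23 ± 0.1 (SE, adjusted p 0.184 and 0.262). Of the 10 tested genes of phospholipase C, IP3 receptors and protein kinase C, 5 lay above and 5 below 0 and 0 passed. Plcb3 differed by -0.38 ± 0.1 (SE, adjusted p = 0.0992) and Itpr1, the IP3 receptor of calcium stores in smooth muscle, by -0.29 ± 0.1 (adjusted p = 0.184). Of 10 tested genes that switch such receptors off, 3 lay above and 7 below 0 and 0 passed. The arrestin gene Arrb2 differed by -0.61 ± 0.15 (SE, adjusted p = 0.0818) and Rgs4, which speeds the shut-off of G proteins, by 0.56 ± 0.18 (adjusted p = 0.153). Arrb2 passed without Fto +/+ replicate 4 (-0.7, adjusted p = 0.0448), and with array weights Arrb2, Plcb3 and Prkcd did (-0.69, -0.39 and -0.57, adjusted p from 0.0213 to 0.0379). Calls over all 25292 tested probes also rose in both settings, from 213 higher and 206 lower in the main fit. They were 499 and 387 without Fto +/+ replicate 4, and 777 and 847 with array weights. Gna12, Plcb2 and Rgs16 were too dim to be tested.

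All 10 genes listed as regulators of Edn1 transcription were tested, and each had a difference below 0, with a median of -0.13 beside -0.02 for all tested probes. None passed, and 0 had an unadjusted p under 0.05. The list does not separate genes that raise Edn1 from genes that lower it, so the shared sign has no single reading. Gata2, the endothelial GATA factor for which the Edn1 window above holds a motif, differed by -0.31 ± 0.14 (SE, adjusted p = 0.278) and Foxo1 by -0.24 ± 0.14 (adjusted p = 0.382). The AP-1 genes Fos and Jun differed by -0.75 ± 0.65 and -0.12 ± 0.23, and Hif1a, the hypoxia factor, by -0.04 ± 0.11 (adjusted p 0.56, 0.808 and 0.879).

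**Figure D4:**
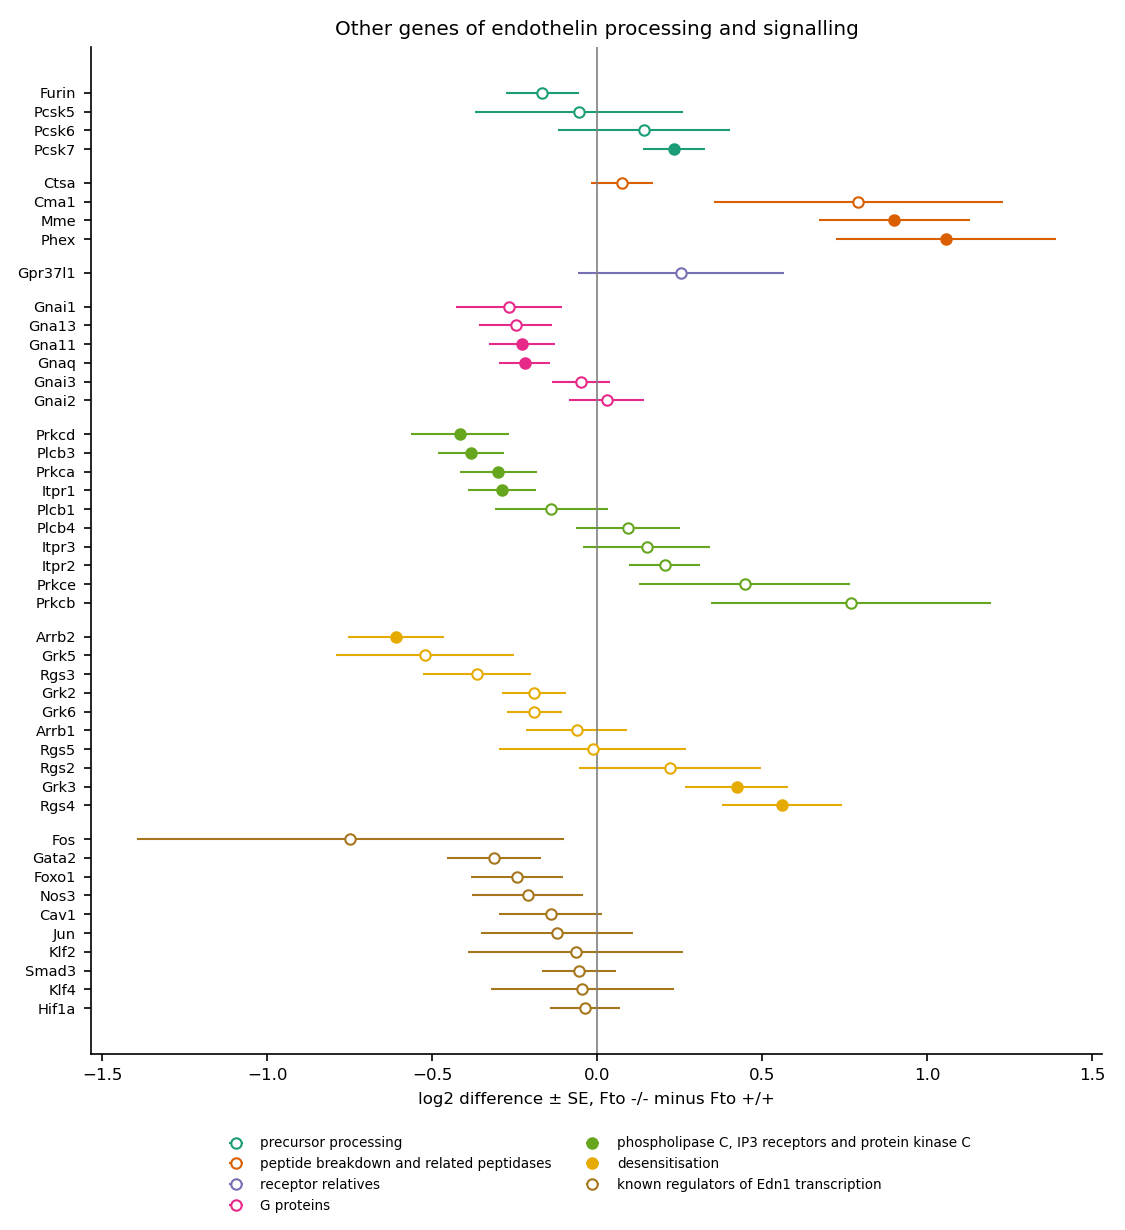
Log2 difference ± SE, Fto -/- minus Fto +/+ (horizontal axis), of the 45 tested genes of the endothelin pathway lists, coloured by list and filled where the unadjusted limma p was under 0.05 (12 genes). Peptidases lie at or above 0 and the regulators of Edn1 transcription at or below it; none passed the adjusted threshold.

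Markers of cell types that lie beside the vessel wall varied widely among single aortae. T cell and thymocyte markers had mean centred log2 levels of -1.08 to 1.57 in Fto -/- samples, against -1.48 to 1.22 in Fto +/+ samples (summed level 4.35 to 11.5 and 3.91 to 9.44). White adipocyte markers had levels of -0.31 to 0.94 against -1.26 to 0.63 (summed level 183 to 362 and 154 to 300.3). Brown adipocyte markers had levels of -0.22 to 1.78 against -1.8 to -0.06, and the defining brown fat gene Ucp1 was well above background on all 8 arrays. Of the 5 tested brown adipocyte markers 4 had a difference above 0 and 1 below, with a median of 1.88, and 0 passed. At an unadjusted limma p under 0.05 were 4, against 19.0% of all tested probes, and 2 did not overlap between genotypes, against 12.1%. Ucp1 differed by 2.9 ± 0.94 (SE, limma adjusted p = 0.153). With the white adipocyte level as a covariate the differences were -0.51 for Edn1, 0.59 for Ednra, 0.45 for Ednrb, -0.34 for Ece1 and -0.63 for Ece2 (adjusted p from 0.229 to 0.501). The part of these cells in the differences was otherwise not tested.

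**Figure D5:**
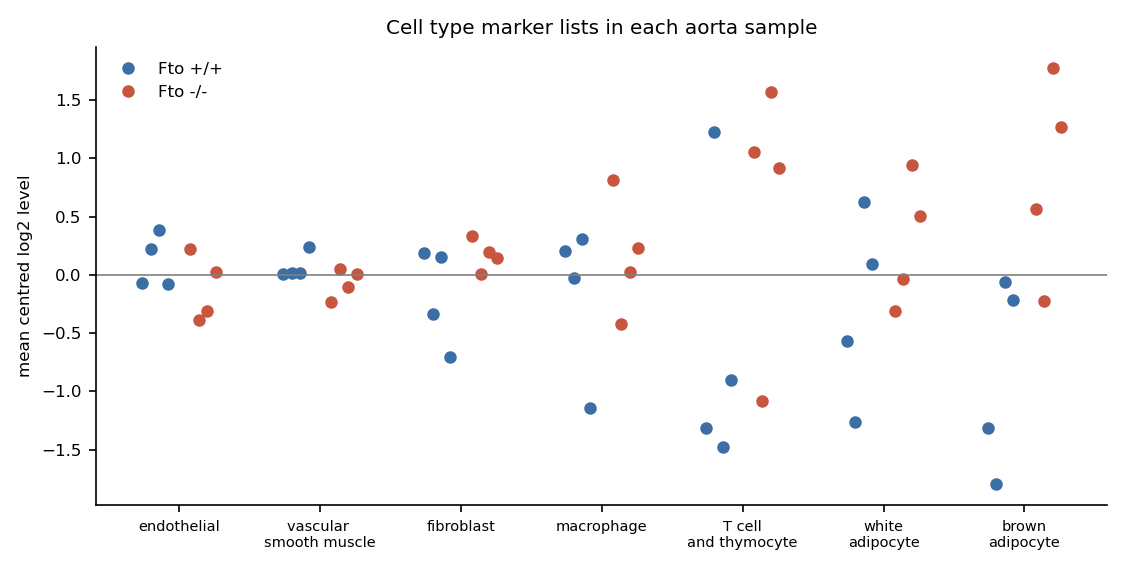
Mean centred log2 level (vertical axis) of 7 lists of cell type markers in each sample, by genotype; each point is 1 sample. Endothelial and smooth muscle lists overlap between genotypes, and the list of T cells and thymocytes and the adipocyte lists spread most within a genotype.

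The 4 members measured on every array were also compared with 13045 other named genes, 1 probe each, by Pearson's r of the normalised log2 level over the 8 arrays, as a description that includes the genotype difference. The 3 genes most like Ednra were Arhgap36 (r = 0.993, Spearman's rho = 0.952), Rab30 (0.989, 1) and Tmem260 (0.987, 0.952). Each of these 3 genes had a higher mean in Fto -/- samples (1.12, 0.65 and 0.54) and did not pass either (adjusted p from 0.0783 to 0.153). Most like Edn1 were Sergef (r = 0.976), Nubp2 (0.966) and Polr2f (0.96), with rho of 0.929, 0.952 and 0.952. Most like Ece2 were Antxr1 (r = 0.964), Fhod3 (0.955) and Zfp78 (0.952), with rho of 0.976, 0.976 and 0.833. The closest genes to Ece1 were less alike: Chm (r = 0.92), Cd300lg (0.903) and Rbm45 (0.9), with rho of 0.833, 0.833 and 0.667. The 8 arrays that give these values are also those of the comparison, so they rank profiles only.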

How the data were processed

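RNA of thoracic aorta was read on Agilent SurePrint G3 Mouse GE 8x60K arrays with Cy3, per the labels' protocols. The deposited scanner files hold intensity per spot, background-subtracted by Agilent Feature Extraction 11.0.1.1 with no scaling between arrays, per the file headers. A table of the whole series, also deposited, has log2 values. As found from the values, each probe there is centred on its median, with column medians from -0.0095 to 0.0049 and slopes of 0.958 to 1.01 against the scanner values over 22211 probes; no source used here states its normalisation.

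Control spots and outlier spots were left out, spots of a probe averaged, and each array's 75th percentile subtracted on the log2 scale. Probes well above background on at least 4 of 8 arrays (25292) were tested across all probes with limma 3.58.1 in R 4.3.3, with Fto +/+ as the reference. P-values were adjusted by the Benjamini-Hochberg method, at a threshold of 0.05. The fit was checked on simulated data. Of 55681 probes, 28331 were named through RefSeq accessions. The probe of highest mean stood for a listed gene.

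Members and lists were chosen with earlier results of these data known. Genes named from the pathway lists are the 2 of smallest p per list and those too dim to test. Fos, Jun, Hif1a, Prkcd, Cma1, Esam, Emcn, Des, Lmod1, Synpo2, Cnn1 and S100b were named after their values were seen. The replicate numbers of the titles name no shared animal, litter or day. Normexp correction used the median spot and background intensity of the scanner files, which hold no mean signal column, in place of the mean. Some markers, and the list that needs them, are not reported here.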

Additional observations from a re-analysis of the deposited data

How the results depend on the processing

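All 104 values of the 5 tested probes under 21 other settings kept their direction, and 0 passed the threshold. Ednrb has 20 settings, as it was not tested among probes well above background on all 8 arrays. The lowest adjusted p was 0.0511, for Ednra with array weights. Another filter on dim probes or the replicate block cannot alter the difference of a probe in this balanced design. Nor can keeping outlier spots for a probe that has none. The direction of those values was therefore fixed in advance. The fits within slide rows and without the arrays with Rag1 signal have 1 sample in an arm, which is assumed to vary like the others, and called 0 or 1 of all probes, so their p-values say nothing about stability. With 1 array left out, Edn1 ran from -0.87 to -0.48, Ednra from 0.43 to 0.68, Ednrb from 0.38 to 0.78, Ece1 from -0.41 to -0.16 and Ece2 from -0.79 to -0.39. The count of pathway genes past the threshold, 0, became 3 with array weights and ran from 0 to 1 with 1 array left out; the cause was not tested. With the replicate number as a block (replicate block), the differences were by design those of the main fit, and 0 passed. They were -0.65, 0.59, 0.56, -0.27 and -0.57 in the order Edn1, Ednra, Ednrb, Ece1 and Ece2. In that fit 90 probes of all were higher and 42 lower, against 213 and 206. Over all probes these counts also became 33 and 13 with slide row as a block, 61 and 35 with no filter on dim probes, 777 and 847 with array weights, 83 and 56 with the white adipocyte covariate, 0 and 0 without the arrays with Rag1 signal, 0 and 0 within slide row 1 and 1 and 0 within row 2, and 55 to 499 and 46 to 387 with 1 array left out. Deviations of same-numbered samples correlated at -0.04 to 0.15, and 1 of 4 Fto -/- samples correlated best with its own number. The fits within slide rows and the use of median intensities in normexp correction were chosen after seeing the data. The 4 samples per genotype limit the precision, and intensities near background limit Ednrb, Edn2 and Edn3.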
